A study of Danio rerio with 2 samples.

Results

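The genes described here encode the machinery of autophagy and of the lysosome, including the V-ATPase, in whole zebrafish larvae. They were taken by gene name from a table of 22849 genes. The names covered the numbered atg genes, ulk1 and ulk2, the Atg8 families map1lc3 and gabarap, the wipi genes, the V-ATPase genes atp6v0, atp6v1 and atp6ap, the lamp genes, the cathepsins, and tfeb, becn1, npc1, npc2, gba, hexa and hexb. The cathepsin K gene ctsk and the V-ATPase gene atp6v0d2 were left out by the same rule. The rule matched 80 genes, of which 78 had normalized read counts that summed to at least 10 over both libraries and were compared, out of 21764 genes compared in all. The 2 genes under this limit were the cathepsin L-like gene ctsll, with 4 under DMSO and 5 under BaP, and map1lc3c, with 4 and 3. The gene nearest above the limit was atp6v1c2, with 12 and 7. Apart from this limit on the sum, members were taken by name alone, with earlier results of these data known.

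The larvae were wild type, of strain AB, and were collected at 6 days post fertilization (dpf). From 3 to 6 dpf they were kept in 0.1% dimethyl sulfoxide (DMSO), the solvent control, or in 1 µM benzo[a]pyrene (BaP). The labels do not state how much DMSO the BaP group received. BaP is a polycyclic aromatic hydrocarbon that binds the aryl hydrocarbon receptor, and the title of the series places it in a study of toxicity to bone. Each treatment was represented by 1 library, made from RNA of 4 pooled biological replicates, so no difference below has a replicate check and no test of the treatment was possible.

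In autophagy, a double membrane closes around cytoplasm and then fuses with a lysosome. The ULK kinase complex starts the process, the Beclin 1 lipid kinase marks the membrane, Atg9, Atg2 and the WIPI proteins bring lipid, and 2 ubiquitin-like conjugation reactions attach Atg8 proteins (the LC3 and GABARAP families) to the growing membrane. The lysosome is acidified by the V-ATPase, a rotary proton pump with a membrane part, Vo, and a cytosolic part, V1, that splits ATP. Cathepsins are proteases that work in that acid, and TFEB is a transcription factor that raises many autophagy and lysosome genes. In fish larvae, as in mammals, lysosomes are prominent in macrophages, in osteoclasts and in the absorptive cells of the gut.

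The values are normalized read counts deposited as whole numbers, and a fold is the BaP value over the DMSO value. Over all genes they summed to 13443263 for DMSO and 11968060 for BaP, and a single read was estimated to count as 0.679 and 0.544. Beside a fold stands its 95% Clopper-Pearson interval on estimated reads, which covers counting error between these 2 libraries and no variation between larvae. The labels were checked on cyp1a, the main BaP-inducible gene, which had 650 and 17859 normalized reads in the DMSO and BaP libraries. The values were not corrected for transcript length, so those of different genes cannot be read as levels. Sums over genes, shares within a pair and picks by most reads use them as they stand.

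Among the members, most autophagy and V-ATPase genes had nearly the same values in both libraries. The cathepsins were the class that differed most, with members in both directions. Of the 78 members 1 was at least 2-fold higher in the BaP library with an interval that left out equality, ctss2.1, beside 3.31% of all genes compared. Another was at least 2-fold lower, ctsl.1, beside 3.57% of all genes. At a fold of 1.5, 3 members were higher (ulk2, ctsc and ctss2.1) and 3 lower (ctsbb, ctsh and ctsl.1), which is 3.85% in each direction beside 7.35% and 8.85% of all genes. Of these 6 genes, 5 were cathepsins. With the libraries scaled to equal totals, 10 members (12.8%) were 1.5-fold higher, beside 11.4% of all genes, and 2 lower (2.56%), beside 5.43%. The median log2 ratio of the members was 0.02, beside -0.06 over all genes compared.

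A ratio within 1.25-fold of equality, a limit picked after the values had been seen, was found for 57 members (73.1%), beside 58.2% of all genes. Genes with few reads scatter more, and among those whose values summed to 300 or more the shares were 76.1% of 67 members and 67.4% of 11250 genes. The interval lay wholly above equality for 23 members (29.5%, beside 18.4% of all genes), wholly below for 15 (19.2%, beside 26.8%), and held it for 40. Intervals narrow with read number, and among genes with a sum of 300 or more it lay above for 34.3% of members and 24.7% of all genes, and below for 22.4% and 36.0%.

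**Figure D1:**
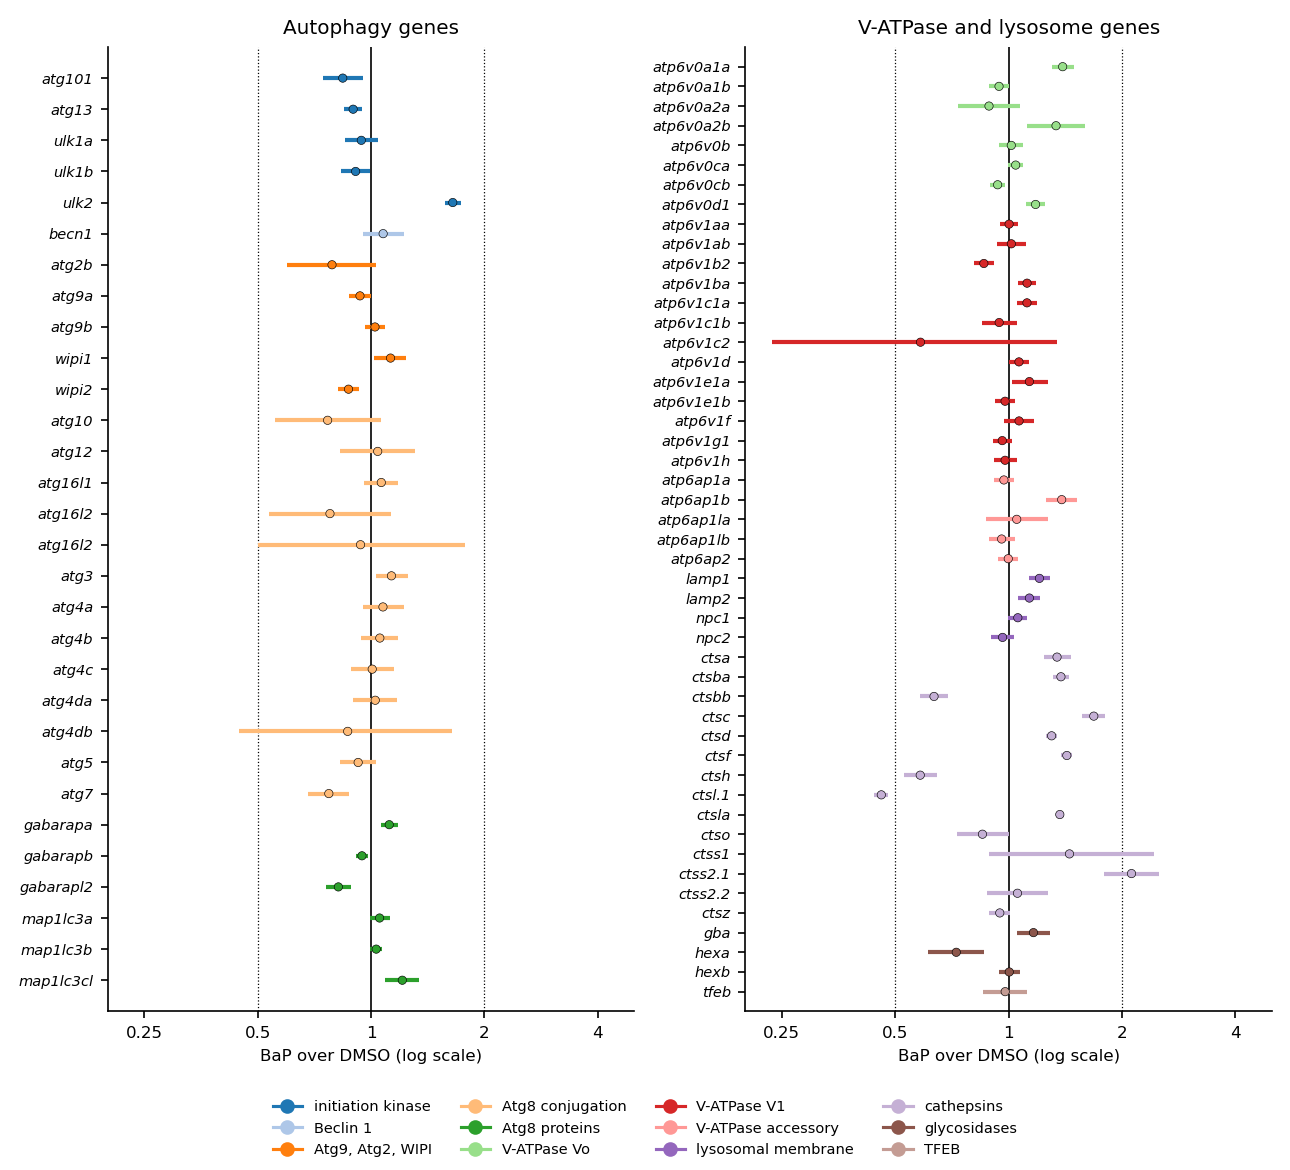
Ratio of the BaP to the DMSO normalized read count for each of the 78 genes, on a log scale, with the 95% interval of counting error as a bar, coloured by class. The solid line marks equality and the dotted lines 2-fold. Most autophagy and V-ATPase genes lie close to the solid line. Farther off lie, among others, ulk2 at 1.65, atp6v0a1a at 1.39, atp6ap1b at 1.38 and atp6v0a2b at 1.34. Below the line, atp6v1c2 lies at 0.583 with a wide bar from 0.235 to 1.34. The cathepsins spread from 0.459 (ctsl.1) to 2.12 (ctss2.1).

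**Figure D2:**
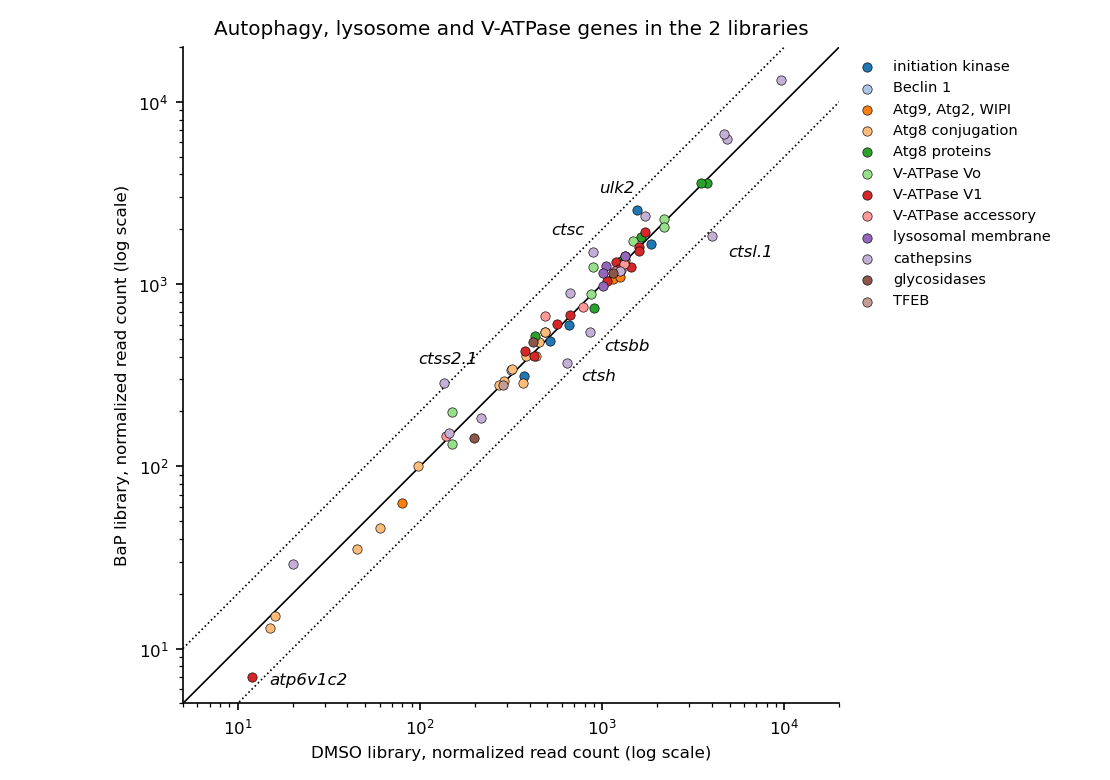
Normalized read count of each gene in the BaP library against the DMSO library, both axes on a log scale, coloured by class. The solid line marks equality and the dotted lines 2-fold. Most points follow the solid line from 12 and 7 (atp6v1c2) up to 9594 and 13114 (ctsla), and ctss2.1 and ctsl.1 lie just outside the dotted lines.

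Of the kinase complex that starts autophagy, ulk2 stood apart from the other genes. This kinase gene (ENSDARG00000097205, chromosome 15, 20843161 to 20894776, plus strand) had 1546 normalized reads under DMSO and 2547 under BaP, 1.65-fold higher (95% interval 1.57 to 1.73). Its relatives ulk1a and ulk1b had 517 and 487 and 654 and 595, ratios of 0.942 and 0.910. The scaffold genes matched by the name rule were also slightly lower. They were atg13 with 1848 and 1656 (ratio 0.896) and atg101 with 371 and 312 (ratio 0.841, 95% interval 0.746 to 0.949). A further scaffold gene outside the rule, rb1cc1, lay on the other side, with 1859 and 2078 (1.12-fold higher, 95% interval 1.06 to 1.17). Of the 5 members in this class 1 had a ratio above 1 and 4 below. Their median log2 ratio was -0.14, and it turned to 0.03 when the libraries were scaled to equal totals. The gene atg101 overlaps rad51c on the other strand by 874 bases.

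The lipid kinase and membrane supply genes matched by name differed little. Beclin 1, a regulatory subunit of the lipid kinase, was represented by becn1 with 314 and 338 normalized reads, and its interval (0.952 to 1.22) held equality. The kinase gene itself, pik3c3, lay outside the rule and had 420 and 502. Its partner gene pik3r4, also outside the rule, had 838 and 949, and both intervals lay above equality. Of further partners outside the rule, nrbf2b (386 and 332) had an interval below equality. For uvrag (75 and 78) the interval held it. The lipid scramblase gene atg9b had 1329 and 1361, and atg9a had 1142 and 1067. Of the WIPI proteins, which bind the lipid that the kinase makes, wipi2 had 1249 and 1088 (ratio 0.871, 95% interval 0.817 to 0.929). The other WIPI gene matched by name, wipi1, had 483 and 544 (ratio 1.13, 95% interval 1.02 to 1.24). Of their relatives outside the rule, wdr45b had 776 and 637 (ratio 0.821, 95% interval 0.755 to 0.892). The relative wdr45 had 633 and 610, with an interval that held equality. The wipi1 gene shares 1665 bases on the same strand with zgc:86896, which had 1454 and 606, so reads of both genes may not be fully separated. The lipid transfer gene atg2b had 80 and 63 and an interval that held equality. The median log2 ratio of the 5 supply genes matched by name was -0.10, and 0.07 with equal totals.

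For 11 of the 13 gene models of the conjugation system the interval held equality, beside 11920 of the 21764 genes compared. Few reads give wide intervals that hold equality more easily, as for atg10 with 60 and 46 (0.555 to 1.06). Ratios over the whole class ran from 0.767 (atg10) to 1.13 (atg3). The genes whose intervals left out equality were the enzyme genes atg7 and atg3. The E1-like enzyme gene atg7 had 369 normalized reads under DMSO and 285 under BaP, 1.29-fold lower (95% interval 1.14 to 1.47). The E2-like enzyme gene atg3, which acts after atg7 on Atg8, had 483 and 547, 1.13-fold higher (95% interval 1.03 to 1.25). The processing protease genes atg4a, atg4b, atg4c and atg4da lay between 1.01 and 1.08. The genes atg5, atg12 and atg16l1, whose products form the complex that places Atg8 on the membrane, had 434 and 401, 97 and 101, and 451 and 480. There were 2 models named atg16l2, 17796 bases apart on chromosome 15, with 45 and 35 and with 16 and 15.

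The Atg8 genes summed to 11473 normalized reads under DMSO and 11564 under BaP over 6 genes. The gene map1lc3b, for the LC3 protein most used as a marker of autophagosomes, had 3467 and 3577, and map1lc3a had 1275 and 1343, both with intervals that held equality. The members farthest from equality were map1lc3cl, with 428 and 518 (1.21-fold higher, 95% interval 1.09 to 1.34), and gabarapl2, with 899 and 736 (1.22-fold lower, 95% interval 1.13 to 1.32). The GABARAP copies lay on either side, gabarapa with 1627 and 1818 and gabarapb with 3777 and 3572. With the libraries scaled to equal totals, which added 0.17 to every log2 ratio, gabarapb lay above equality, and it did so too with the trend on expression removed.

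The V-ATPase genes had similar values in both libraries. None of the 26 genes reached 1.5-fold with an interval that left out equality, beside 7.35% of all genes higher and 8.85% lower. Within 1.25-fold were 22 of them and 25 of the 30 autophagy genes, beside 58.2% of all genes. With a sum of 300 or more, 20 of 23 V-ATPase genes (87.0%) were within 1.25-fold, beside 67.4% of all such genes. The interval lay above equality for 8 V-ATPase genes and below for 2. For the autophagy genes these counts were 5 and 8, beside 18.4% and 26.8% of all genes. The middle range (lower to upper quartile) of the V-ATPase log2 ratios ran from -0.06 to 0.14. It ran from -0.31 to 0.19 over all genes and from -0.24 to 0.15 over genes with a sum of 300 or more. The 8 Vo genes summed to 9173 under DMSO and 9710 under BaP, a ratio of 1.06 (95% interval 1.03 to 1.08). The 13 V1 genes summed to 13216 and 13408, a ratio of 1.01 (95% interval 0.995 to 1.03). With the libraries scaled by the total of all values, these sums shifted upward with all other genes, so the statement is that they stayed near the bulk of genes and not that their amount per larva was equal.

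Among the V1 genes, which form the ATP-splitting head and the stalks, the catalytic A subunit genes atp6v1aa and atp6v1ab had 1589 and 1593 and 669 and 680 normalized reads. The B subunit genes differed from each other, atp6v1ba with 1725 and 1930 (1.12-fold higher, 95% interval 1.06 to 1.18) and atp6v1b2 with 1442 and 1239 (ratio 0.859, 95% interval 0.809 to 0.913), and their sum was 3167 and 3169. Summed over the genes of each subunit, A to H lay between 0.961 (subunit G) and 1.07 (subunits C and F). The stalk genes atp6v1e1a (378 and 429, 1.13-fold) and atp6v1c1a (1184 and 1324, 1.12-fold) had intervals above equality. The ratio of atp6v1c2 was 0.583, on 12 and 7 normalized reads, and its interval from 0.235 to 1.34 held equality. The genes atp6v1f and lamtor4 overlap by 3106 bases on opposite strands, and no source used here says if counting was by strand.

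Among the Vo genes, which form the proton path, the largest ratio belonged to atp6v0a1a (ENSDARG00000020847, chromosome 3, 16922226 to 16973125, plus strand). This gene for an a subunit, the part that holds the proton channels, had 893 normalized reads under DMSO and 1242 under BaP, 1.39-fold higher (95% interval 1.30 to 1.49). Its copy atp6v0a1b had 1274 and 1201, so that the share of atp6v0a1a in the pair was 41.2% and 50.8%. A second a subunit gene, atp6v0a2b, had 149 and 199 (1.34-fold higher, 95% interval 1.12 to 1.59), and its copy atp6v0a2a had 150 and 133. The gene of subunit d, atp6v0d1, had 1467 and 1729, 1.18-fold higher (95% interval 1.11 to 1.25). The genes of the rotating ring lay near equality, atp6v0ca with 2177 and 2272, atp6v0cb with 2190 and 2047, and atp6v0b with 873 and 887. Of the accessory genes, atp6ap1b had 486 and 672 (1.38-fold higher, 95% interval 1.26 to 1.52), while atp6ap1a had 1320 and 1282 and the prorenin receptor gene atp6ap2 had 1176 and 1173.

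**Figure D3:**
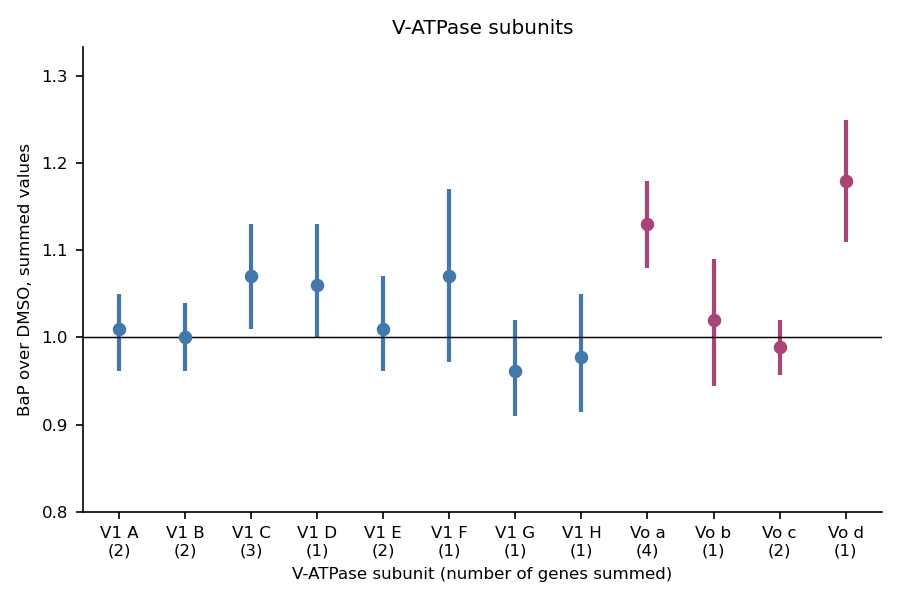
Ratio of BaP to DMSO for normalized read counts summed over the genes of each V-ATPase subunit, with the 95% interval of counting error, V1 subunits in blue and Vo subunits in purple, and the number of genes in brackets; the axis begins at 0.8. Subunits Vo a (1.13) and Vo d (1.18) lie above the rest, and the others lie between 0.961 and 1.07.

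The V-ATPase is abundant in proton-secreting ionocytes of the larval skin and in osteoclasts, and markers of ionocytes and osteoclasts are given beside it. The ionocyte list is mixed, since trpv6, slc8a1b and slc12a10.2 mark other ionocyte types. All 12 ionocyte markers were detected, 3 with an interval above and 6 below equality, beside 18.4% and 26.8% of all genes. Their values summed to 3299 and 2906. The carbonic anhydrase gene ca15a was the lowest in ratio (485 and 194), while the ammonia channel gene rhcgb had 354 and 559. Of the osteoclast markers 8 were compared, 3 with an interval above and 1 below equality, beside 18.4% and 26.8% of all genes. The 10 genes listed summed to 2286 and 3555. Without mmp9 (206 and 1409), which other cells also express, the other 9 genes listed summed to 2080 and 2146. They included tcirg1a (705 and 628) and tcirg1b (370 and 433), which encode a further a subunit outside the naming rule, and ctsk (569 and 642). The fusion gene ocstamp had 1 and 3 and dcst1 had 1 and 1, and no listed marker was at 0. The part of these cells in the V-ATPase values was not tested, and in whole larvae fewer cells of a type and less RNA per cell cannot be told apart.

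Of 14 cathepsin genes 7 had an interval above equality, 4 below, and 3 held it, and 3 were within 1.25-fold. Among the 12 cathepsins with a sum of 300 or more the interval lay above for 58.3% and below for 33.3%, beside 24.7% and 36.0% of all genes of that read number. The values of the 14 genes summed to 29598 under DMSO and 35371 under BaP, which is 0.220% and 0.296% of all values. The share of the other 64 members was also higher under BaP, 0.424% and 0.492%. The 7 genes with an interval above equality summed to 22491 and 31081, and the 4 below to 5696 and 2928. These groups were formed from the same values that were summed. The direction of each sum was therefore set by the grouping, and only its size is given. The median log2 ratio of the class was 0.40, and that of the other 64 members was 0.01. The 7 higher genes kept intervals above equality under all scalings and other settings tried, and of the 4 lower genes all but ctso kept intervals below under those settings.

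The lowest ratio was that of ctsl.1 (ENSDARG00000003902, chromosome 17, 27456804 to 27461321, plus strand), a gene for an L-type cysteine protease. It had 3986 normalized reads under DMSO and 1830 under BaP, 2.18-fold lower (95% interval 2.09 to 2.27). With the libraries scaled by the total of all values, or with the trend on expression removed, its log2 ratio was -0.96 or -0.98 in place of -1.12, so that it no longer passed 2-fold. The other L-type gene, ctsla, lay on the opposite side, with 9594 and 13114 (1.37-fold higher, 95% interval 1.34 to 1.40).

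The same opposition was seen between the cathepsin B copies. The copy ctsba had 1719 and 2366 normalized reads, 1.38-fold higher (95% interval 1.31 to 1.45). The copy ctsbb (ENSDARG00000101051, chromosome 20, 52886927 to 52902720, minus strand) had 857 and 543, 1.58-fold lower (95% interval 1.45 to 1.72). The share of ctsba in the pair was 66.7% under DMSO and 81.3% under BaP. The ctsba gene overlaps cgref1 on the other strand by 726 bases, and cgref1 had 138 and 67, lower in BaP where ctsba was higher. The third lower gene was ctsh (ENSDARG00000041108, chromosome 18, 26422124 to 26428525, plus strand), for an aminopeptidase, with 637 and 371 (1.72-fold lower, 95% interval 1.55 to 1.90).

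The highest ratio was that of ctss2.1 (ENSDARG00000074656, chromosome 16, 29509133 to 29513434, plus strand), a cathepsin S gene. Cathepsin S is known in mammals for trimming the invariant chain in antigen-presenting cells. The gene had 135 normalized reads under DMSO and 286 under BaP, 2.12-fold higher (95% interval 1.79 to 2.51). Its tandem neighbour ctss2.2 begins 1038 bases downstream on the same strand and had 145 and 153, and the third cathepsin S gene, ctss1, had 20 and 29. No source used here says how reads shared by such close copies were counted, so the split between ctss2.1 and ctss2.2 is uncertain.

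The dipeptidyl peptidase gene ctsc, whose product activates serine proteases of leukocyte granules in mammals, had 891 and 1499 normalized reads, 1.68-fold higher (95% interval 1.57 to 1.80). Smaller differences in the same direction were measured for ctsf (4644 and 6626, 1.43-fold), the aspartic protease gene ctsd (4839 and 6291, 1.30-fold) and the serine carboxypeptidase gene ctsa (669 and 899, 1.34-fold). The carboxypeptidase gene ctsz, with 1246 and 1180, had an interval that held equality. The gene ctso had 216 and 184, with an interval from 0.729 to 0.999.

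**Figure D4:**
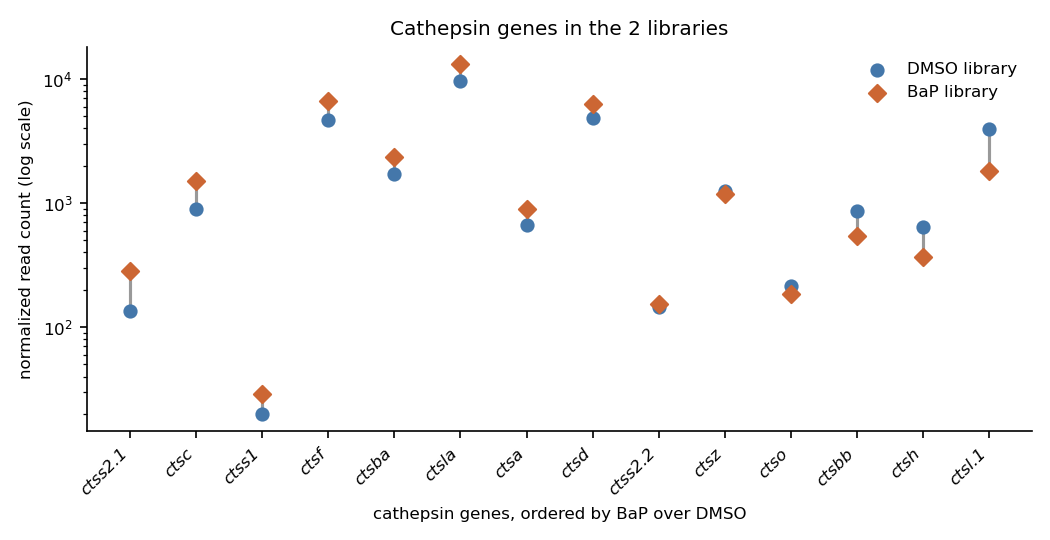
Normalized read counts of the 14 cathepsin genes in the DMSO library (blue circles) and the BaP library (orange diamonds), on a log scale, ordered from the highest ratio (ctss2.1, 2.12) to the lowest (ctsl.1, 0.459). The 9 genes on the left lie higher in the BaP library and the 5 on the right lower, with ctss2.2 and ctsz almost level.

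Markers of cells rich in lysosomes are given beside the cathepsins. All 16 macrophage and microglia markers were detected. The interval lay above equality for 4 and below for 5, beside 18.4% and 26.8% of all genes. Those above were mpeg1.2, mfap4 (71 and 103 normalized reads), slc7a7 and apoeb. Those below were csf1rb, marco, lcp1, coro1a and the gene matched to cd68. For mpeg1.1 (210 and 181) and csf1ra (404 and 433) the interval held equality. The list summed to 13037 and 18435, but to 4339 and 3834 without apoeb (8698 and 14601), an apolipoprotein gene that other tissues also express. Most of the difference in the second sum came from si:ch211-212k18.7, which the name table pairs with cd68, with 1570 and 1078. Of the 7 markers of lysosome-rich and ileal enterocytes, 2 had an interval above equality and 4 below, beside 18.4% and 26.8% of all genes. The list summed to 6308 and 5318. The lower ones were the endocytic receptor genes cubn (831 and 607) and amn (122 and 85), their adaptor gene dab2 (613 and 334) and the bile acid binding protein gene fabp6 (4191 and 3423). A further receptor gene, lrp2b, had 307 and 292, with an interval that held equality. The higher ones were the bile acid transporter gene slc10a2 (150 and 418) and the enteropeptidase gene tmprss15 (94 and 159). The hatching gland symbols he1.1, he1.2 and he2 were not matched, so that list is incomplete. Of the 4 markers compared from it, cd63 (2260 and 3494) had an interval above equality, beside 18.4% of all genes. The gene cd63 also stands in the list of lysosomal membrane genes below. For xbp1, klf17 and tbx16 the intervals held equality. No marker compared in these lists was at 0. The part of these cell types in the cathepsin values was not tested.

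The remaining lysosome members had ratios from 0.726 (hexa) to 1.21 (lamp1), a narrower range than that of the cathepsins. The membrane glycoprotein genes lamp1 and lamp2 had 1045 and 1261 (1.21-fold higher, 95% interval 1.13 to 1.29) and 1015 and 1152 (1.13-fold higher, 95% interval 1.06 to 1.21) normalized reads. The cholesterol export genes npc1 and npc2 had 1341 and 1418 and 1009 and 972, with intervals that held equality. Of the glycosidases, the glucocerebrosidase gene gba had 416 and 484 (1.16-fold higher, 95% interval 1.05 to 1.29). The hexosaminidase genes differed, hexa with 197 and 143 (1.38-fold lower, 95% interval 1.16 to 1.64) and hexb with 1147 and 1151. The transcription factor gene tfeb had 284 and 278, and its interval from 0.857 to 1.12 held equality.

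Pairs by symbol with unlike ratios were about as common among these genes as among all genes of similar read number. Of 16 pairs of members whose symbols differ only in a final a or b, 7 had intervals that did not overlap (43.8%), beside 29.4% of 2582 such pairs among all genes. Where each copy had a sum of 300 or more, the counts were 6 of 13 (46.2%) and 516 of 1266 pairs (40.8%). The 7 pairs were those of atp6ap1, atp6v0a1, atp6v0a2, atp6v0c, ctsb and gabarap, and hexa with hexb, which are separate genes rather than fish duplicates. Pairing went by symbol alone, so other pairs may be separate genes too, such as those of atg4, atg9 and map1lc3, whose intervals overlapped. The share among true duplicates was not tested.

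Other genes of these pathways were taken from 5 lists of 169 symbols, by which 166 genes were compared. Of these, 7 were at least 2-fold higher (4.22%, beside 3.31% of all genes) and 1 lower (0.602%, beside 3.57%). At 1.5-fold 17 of the 166 were higher (beside 7.35% of all genes) and 3 lower (1.81%, beside 8.85%), and the median log2 ratio was 0.08.

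Of 45 genes listed as other lysosomal hydrolases 5 were at least 2-fold higher and 0 lower, beside 3.31% and 3.57% of all genes (median log2 ratio 0.15). At 1.5-fold 9 were higher and 0 lower, beside 7.35% and 8.85% of all genes. The interval lay above equality for 20 and below for 9, beside 18.4% and 26.8% of all genes. The list also held genes whose products act mainly outside the lysosome, such as gba2, tpp2 and neu3.1, and none of these named genes passed 1.5-fold. Where the other listed products act, that of hyal2a among them, was not tested. The gene listed as lipf, which the name table pairs with the lysosomal acid lipase symbol lipa, had 599 and 1324 normalized reads, 2.21-fold higher (95% interval 2.04 to 2.39). The palmitoyl-protein thioesterase gene ppt1 had 433 and 882, 2.04-fold higher (95% interval 1.86 to 2.24). The heparan and keratan sulfate enzyme genes naglu and galns had 51 and 122 and 151 and 307, and the hyaluronidase gene hyal2a had 18 and 38. The ceramidase genes asah1a (286 and 453) and asah1b (643 and 1106) passed 1.5-fold. The legumain gene lgmn, for a protease that matures cathepsins, had 8291 and 6624, a ratio of 0.799.

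Of 20 cargo receptor genes, whose products tie cargo to Atg8, 1 was at least 2-fold higher and 1 lower (median log2 ratio 0.20). The shares of all genes were 3.31% and 3.57%. The interval lay above equality for 11 of the 20 and below for 4, beside 18.4% and 26.8% of all genes. The prohibitin gene phb2a, an inner mitochondrial membrane protein that acts as a mitophagy receptor in mammals, had 479 and 1056, 2.20-fold higher (95% interval 2.02 to 2.41). The glycogen receptor gene stbd1 had 246 and 116, 2.12-fold lower (95% interval 1.78 to 2.53). The receptor gene optn had 657 and 1046 (1.59-fold), and sqstm1, for the receptor p62, had 917 and 1203 (1.31-fold, 95% interval 1.23 to 1.40).

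Of 34 genes that control the mTORC1 kinase and TFEB, 1 was at least 2-fold higher and 0 lower (median log2 ratio -0.09). Over all genes the shares were 3.31% and 3.57%. The interval lay above equality for 6 of the 34 and below for 11, beside 18.4% and 26.8% of all genes. The stress-induced mTORC1 inhibitor gene sesn2 had 56 and 118, 2.11-fold higher (95% interval 1.61 to 2.77), and its relative sesn3 had 1047 and 544, 1.92-fold lower (95% interval 1.78 to 2.09). The genes of the tuberous sclerosis complex, a brake on mTORC1, were lower, tsc2 with 1136 and 732, tsc1a with 1209 and 855, and tsc1b with 1286 and 953. The kinase gene mtor itself had 894 and 850, and the TFEB relative tfe3a had 174 and 233.

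None of 26 other core autophagy genes and 41 other lysosomal membrane and delivery genes was at least 2-fold apart with an interval off equality. Smaller differences were common. In the first list the interval lay above equality for 12 genes and below for 5. In the second it lay above for 15 and below for 4, beside 18.4% and 26.8% of all genes. At 1.5-fold 2 genes of the first list and 3 of the second were higher, beside 7.35% of all genes. In the first list these were tmem41b (72 and 127), for a lipid scramblase, and zgc:91909 (210 and 397), which the name table pairs with rab7a. In the second they were the tetraspanin gene cd63 (2260 and 3494), litaf (128 and 220) and mon1a (62 and 109), for a subunit of the Rab7 activator. The members of these lists with the most reads were rab7, with 1853 and 2266, rb1cc1, for the scaffold of the ULK complex, with 1859 and 2078, and psap, for the precursor of the saposins, with 7080 and 8307.

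**Figure D5:**
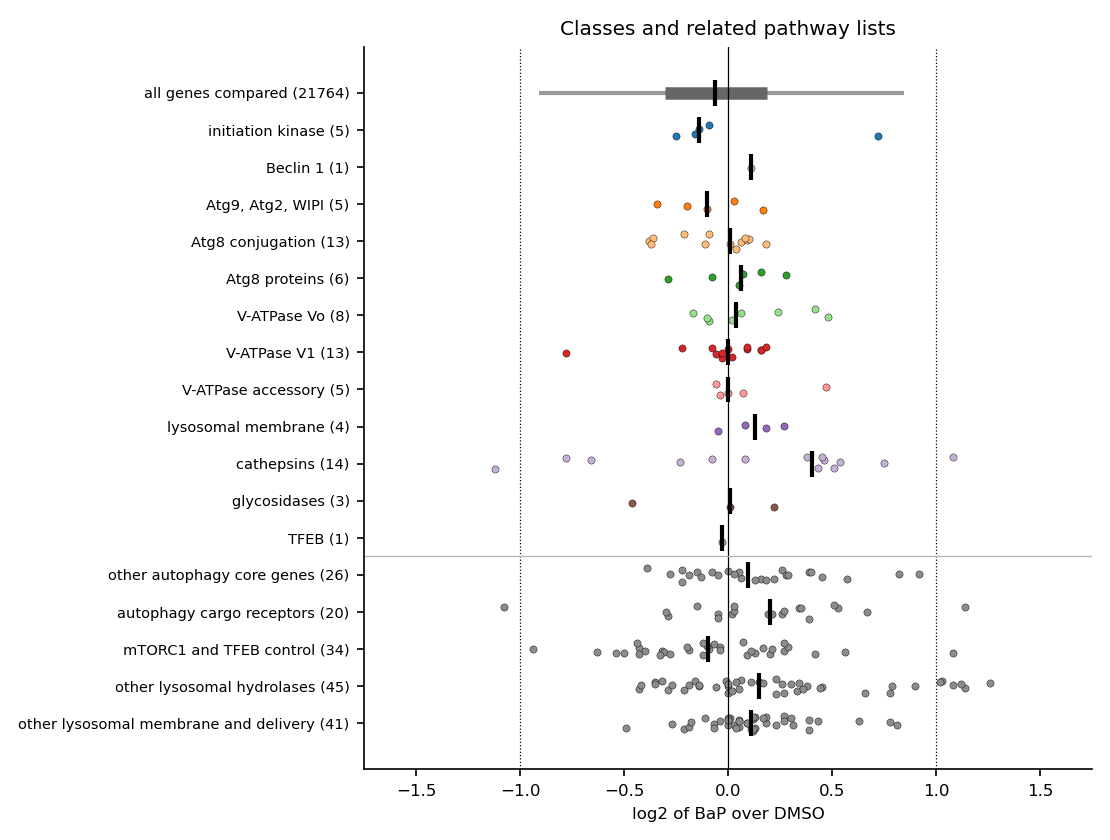
Log2 ratio of BaP to DMSO for each gene (points) of the member classes (coloured) and of the 5 related lists (grey), with the median as a black tick and the number of genes in brackets; points are spread vertically for legibility. The top row gives all 21764 genes compared, with the interquartile range as a thick bar and the range from the 5th to the 95th percentile as a thin line, and dotted lines mark 2-fold. The cathepsin points fall on both sides of 0 around a median of 0.40, while the V-ATPase medians lie at 0.04 for Vo and 0.00 for V1.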

How the data were processed

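Whole-larva polyadenylated RNA was sequenced from 1 library per treatment, each from 200 ng of total RNA of 4 pooled biological replicates, per the labels' protocols. Per the submitters' processing notes, which give neither role nor order, the tools were featureCounts 1.6.3, STAR 2.6.1d and Trimmomatic 0.38, and the builds GRCz11 and danRer11. The coordinates are those of the deposited table, which names no build.

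The deposited values are a score, that is read counts which the authors' name for the table calls normalized, here whole numbers. No source used here names the scaling method. Low values recur in the pattern that whole reads times a constant would leave, and maximum likelihood put that constant at 0.679 (DMSO) and 0.544 (BaP), 89.6 and 130 log-likelihood units above the next candidate. Dividing by it gave the estimated reads for the intervals, which were widened for rounding. Intervals cover counting error only, and reads carry no molecular identifiers.

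The genes and lists were chosen with earlier results of these data known. Named genes are members past 2-fold, per class the 2 farthest from equality with intervals that leave it out and the one with the most reads, and per list up to 4 genes past 2-fold or else the 2 with the most reads. Any other gene named was picked with its values in view. Of 222 listed symbols 9 were not matched and 8 matched through the name table. Promoter and protein sequences were not used here. The scripts were tested on simulated data. Alternatives were other scalings, filters, pseudocounts, intervals and a trend correction. Intervals came from scipy 1.17.1 and the trend from statsmodels 0.14.6, with pandas 2.3.3, numpy 2.4.6 and, for plots, matplotlib 3.10.9 under Python 3.11.15.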

Additional observations from a re-analysis of the deposited data

How the results depend on the processing

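The scaling and the trend correction moved the results most. Scaling by the total of all values added 0.17 to every log2 ratio, and the median of ratios and the trimmed mean of M values each added 0.06. Members at least 2-fold lower numbered 0 in place of 1 with total scaling and with the trend on expression removed. The shares of all genes under these 2 settings were 2.33% and 2.76%. Members at least 1.5-fold higher numbered 10 with total scaling and 6 with the trend removed, in place of 3. The shares were 12.8% and 7.69% of the members beside 11.4% and 8.73% of all genes, so that with total scaling the members' share was no longer below that of all genes. The median log2 ratio of the members was 0.19 with total scaling, 0.08 with the median of ratios and with the trend removed, 0.09 with the trimmed mean and 0.03 with a minimum sum of 50, in place of 0.02. With total scaling 46 members had an interval above equality in place of 23, and 6 below in place of 15 (59.0% and 7.69%, beside 32.0% and 14.1% of all genes). With the trend removed 30 were above and 9 below (38.5% and 11.5%, beside 22.6% and 21.4% of all genes). With the median of ratios 30 were above and 10 below (38.5% and 12.8%, beside 22.4% and 21.3%). The trimmed mean gave the same member counts, beside 22.7% and 21.1% of all genes. All 23 members above equality remained so except 3 (atp6v1d, atp6v1e1a and wipi1) when the values were taken as reads. Of the 15 below, 6 remained so with total scaling, and 10 with the median of ratios or the trimmed mean. Those no longer below with total scaling included atg101, atg13, atp6v1b2 and wipi2. With total scaling 2 (atp6v0cb and gabarapb) passed to above, and gabarapb also with the trend removed. The log2 ratio of gabarapb was then 0.09 and 0.10 in place of -0.08. The log2 ratio of ctsla was 0.62 with total scaling and 0.80 with the trend removed, in place of 0.45. The ratios of atp6ap1a and tfeb, near equality, also took the other sign under these and the other scalings. No member named by the rule and past 1.5-fold changed sign under the alternatives run. The cause of these shifts was not tested. No paired analysis was possible because each treatment has 1 library. The counts of members above and below equality and within 1.25-fold were added with the values in view.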

Other observations

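Cystatins, secreted and cytosolic inhibitors of cysteine cathepsins, were looked at after the cathepsin values had been seen, by the symbols that begin with cst and a digit. The cystatin C gene cst3 had 2799 normalized reads under DMSO and 3796 under BaP, 1.36-fold higher (95% interval 1.30 to 1.41). Of the cst14 genes, cst14a.1 had 15 and 51 (3.40-fold higher, 95% interval 2.11 to 5.72) and cst14a.2 had 236 and 346 (1.47-fold higher, 95% interval 1.28 to 1.68). The other members, cst14b.1 with 340 and 318 and cst14b.2 with 12 and 7, had intervals that held equality. These are values of 2 libraries, without a replicate check.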
